A study of Mus musculus with 6 samples.

Results

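A group of 9 genes linked to FoxO signalling and to T cell quiescence was followed here across invariant natural killer T (iNKT) cells of 3 mouse organs. The members were chosen by gene symbol out of 27998 genes listed, and all 9 were found. They are the forkhead factors Foxo1 and Foxp1, the PI3K inhibitor Pik3ip1, the sestrins Sesn1 and Sesn3, the thioredoxin-binding protein Txnip, the cell cycle inhibitors Cdkn1b and Tob1, and the translation inhibitor Pdcd4. iNKT cells are T cells with a semi-invariant receptor for lipids presented by CD1d. Single-cell RNA libraries (10x Genomics 3′) came from liver, spleen and lymph node, with 2 libraries an organ. The mice of all groups were wild-type C57BL/6 at 5 weeks of age, with no treatment named. The labels thus set the groups apart by organ only, while sex-linked genes, given below, also split lymph node from liver and spleen. The sorted cells were negative for CD8 and B220 and positive for TCR-β and the CD1d tetramer. Sex and the number of mice behind a library are not given. The molecule is labelled as nuclear RNA, a point that could not be settled. The study's methods call the 2 libraries of an organ biological repeats. The p-values rest on the spread between such libraries, pooled over the 3 organs and drawn toward a spread shared by all genes tested. They do not measure the spread of a gene's own 2 libraries alone.

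FoxO transcription factors link growth signals to gene expression. When PI3K is active, the kinase AKT phosphorylates them and they leave the nucleus. When PI3K is quiet they stay in the nucleus and keep genes of survival, homing and cell cycle arrest on. In resting T cells, Foxo1 maintains Klf2, Il7r and Ccr7, and the cell cycle inhibitor p27, encoded by Cdkn1b, is a FoxO target in many cells. Other members act as brakes elsewhere on the same route. Pik3ip1 restrains PI3K at the membrane, sestrins restrain mTORC1, Txnip restrains glucose uptake, Tob1 restrains proliferation and Pdcd4 binds the helicase eIF4A and restrains translation.

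Promoters were searched for the letters GTAAACA, a core forkhead consensus, on both strands. All 9 members had a promoter in the RefSeq table (GRCm38.p6), 13 promoters in all, each running from 250 bases before to 50 after a start site. The letters were found in 2 of the 13, one of Txnip and one of the 2 of Sesn1, while 3.65% of 32851 promoters of the same length held them. The sequences are shown because Txnip and Sesn1 gave the widest differences in favour of liver over lymph node below. Capitals mark the matched letters. The Txnip stretch is chr3:96557707-96557956 on the plus strand, 250 bases up to the start site, with the match beginning 121 bases before that site. The Sesn1 stretch is chr10:41810585-41810614 on the plus strand, 30 bases, with the match on the other strand beginning 23 bases after the start site.
Txnip: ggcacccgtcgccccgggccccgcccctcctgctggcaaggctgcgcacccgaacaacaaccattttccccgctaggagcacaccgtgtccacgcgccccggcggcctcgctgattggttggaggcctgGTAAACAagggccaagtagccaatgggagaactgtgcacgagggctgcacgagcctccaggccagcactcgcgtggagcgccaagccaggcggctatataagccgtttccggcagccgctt
Sesn1: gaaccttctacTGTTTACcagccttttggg
A match of these letters describes the sequence and does not show that a factor binds there.

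The libraries held 2638 to 2861 cells after filtering and 4758138 to 10870838 unique molecular identifiers (UMIs) in those cells, with the liver libraries the deepest (median 2880 and 3592 UMIs per cell against 1470 to 1730.5 in the other organs). A pair of libraries shared 6 to 20 cell barcodes. Levels below are in CPM, in which a gene's UMIs are scaled to the same total in every library or class. T cell identity was clear, with Cd3e at 630 to 1168 CPM and Zbtb16, the factor that defines the lineage, at 72.2 CPM or more in the 6 libraries. Markers of B cells summed to 2.52 to 16.2 CPM, of hepatocytes to 1.65 to 4.06 CPM and of NK cells to 0 to 7.42 CPM. The myeloid list of 8 genes summed to 200 to 366 CPM, with both lymph node libraries above the other 4 and S100a9 at 0. The endothelial list of 4 genes, with Kdr at 0, summed to 25.2 and 30.2 CPM in liver, 42.7 and 41.4 in spleen, and reached 63.3 and 66.4 in lymph node, the same order of organs as Cdkn1b and Tob1 below. The median share of mitochondrial UMIs per cell was 2.73% and 2.79% in liver, 4.07% and 4.68% in spleen, and reached 4.53% and 5.13% in lymph node. The part of these markers and shares in the results was not tested. The erythroid list of 5 genes, made of haemoglobin genes and Alas2, had 3932 and 5253 UMIs in liver and at most 1 in any other library. The haemoglobin genes were left out of the sums of the main setting. Both lymph node libraries stood apart from the other 4 in a pair of ways. Xist had 5401 to 10404 UMIs in liver and spleen libraries and 0 in lymph node, and Ddx3y had 0 in liver and spleen and 676 and 746 in lymph node. The 13 immediate-early genes of a fixed list summed to 1432 and 1588 CPM in liver, 2296 and 1958 in spleen, but 8696 and 9482 in the lymph node libraries. Xist without Ddx3y is the pattern of female cells, and Ddx3y without Xist that of male cells. Organ, sex of the mice and immediate-early genes therefore cannot be told apart in the comparisons with lymph node.

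Over all cells, members differed between the organs in both directions. Txnip was highest in liver, Sesn1 was lowest in lymph node, and Cdkn1b and Tob1 rose from liver through spleen to lymph node. Foxo1 itself and Sesn3 were called in none of the 3 comparisons. Between liver and spleen, edgeR's quasi-likelihood test on UMIs summed per library called 5 members at an adjusted p under 0.05, beside 25.8% of all 10174 genes tested. Of those, 2 were higher in liver (12.7% of all genes) and 3 in spleen (13.0%). Between liver and lymph node, 5 were called (37.6% of all genes), with 2 higher in liver (18.0%) and 3 in lymph node (19.6%). Between spleen and lymph node, 5 were called (18.3% of all genes), with 1 higher in spleen (7.98%) and 4 in lymph node (10.3%). The median log2 difference over the 9 members was -0.01, -0.03 and -0.11 in the same order, against 0.02, 0.01 and 0.00 over all genes. The comparisons share libraries, so their counts are not independent. Within a whole library, a lower sum can come from fewer cells of a type or from less RNA per cell, and these cannot be told apart.

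**Figure D1:**
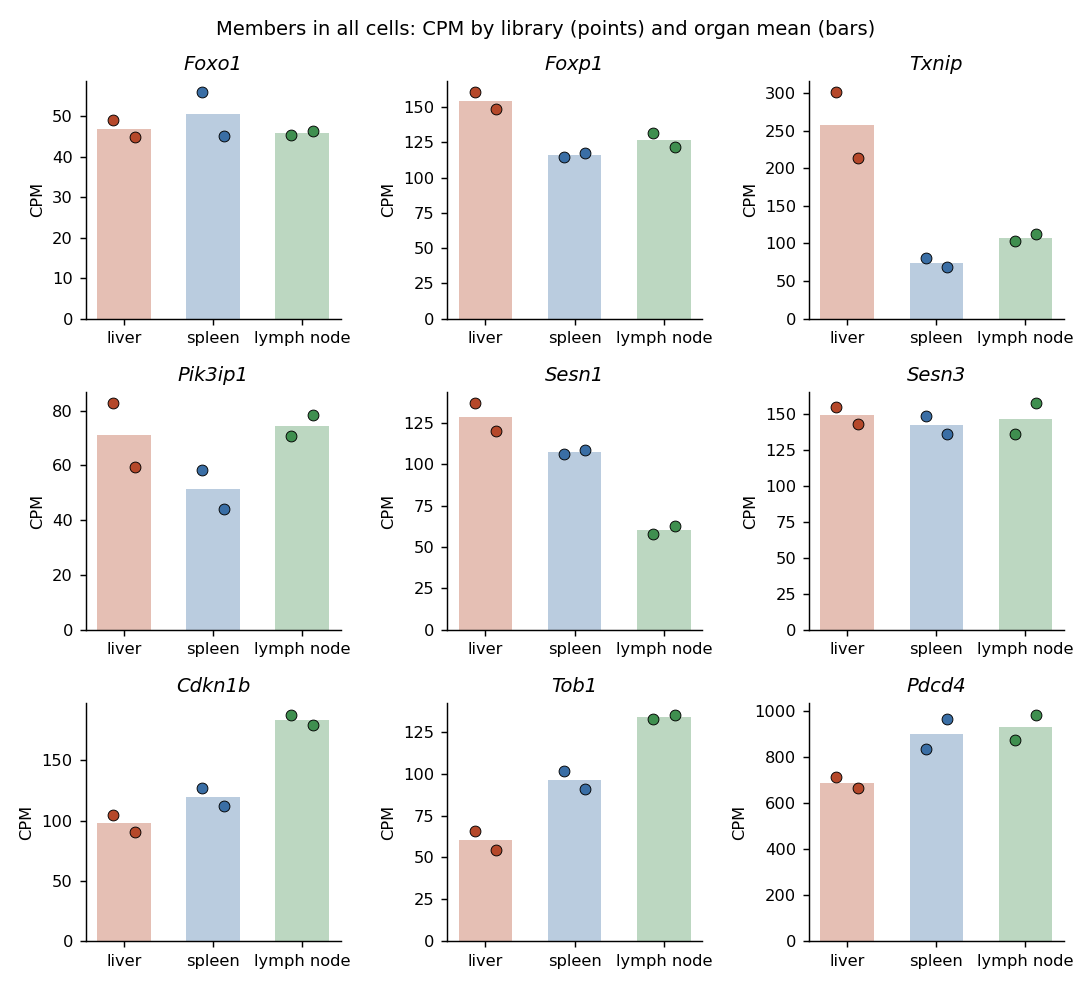
Level of each member in CPM (y axis, from 0) in the 2 libraries (points) of liver, spleen and lymph node, with bars at the mean of 2. Txnip reaches 301 and 214 CPM in liver against 68.6 to 112 elsewhere, Cdkn1b and Tob1 are highest in both lymph node libraries, and Foxo1 stays between 44.9 and 56.0 CPM throughout.

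Foxo1 (ENSMUSG00000044167, chr3:52268336-52353221, plus strand, GRCm38) encodes the FoxO factor that dominates in T cells. It was at 49.1 and 44.9 CPM in liver, 56.0 and 45.1 in spleen, with 45.4 and 46.5 in lymph node. The 3 organs overlapped, and the order spleen 50.5 ± 7.71, liver 47.0 ± 3.00 and lymph node 45.9 ± 0.724 CPM (mean ± SD, n = 2) had no neighbours apart beyond their spread. The log2 difference was -0.18 ± 0.14 (SE) for liver over spleen, with a 95% interval from -0.47 to 0.11 and an edgeR adjusted p of 0.368. Against lymph node it was -0.02 (interval -0.32 to 0.27) for liver and 0.16 (-0.15 to 0.47) for spleen. FoxO activity is set largely by where the protein is in the cell, which RNA levels do not measure.

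Foxp1 (ENSMUSG00000030067, chr6:98925338-99522721, minus strand) encodes a forkhead repressor that holds naive T cells at rest. Its values were 160.3 and 148 CPM in liver, 115 and 117 in spleen, with 132 and 122 in lymph node. Liver lay above both other organs without overlap. The gene was higher in liver than in spleen by 0.34 ± 0.12 on the log2 scale (1.27-fold, edgeR adjusted p = 0.0297), and the differences from lymph node were not called (0.23 for liver, adjusted p = 0.119, and -0.11 for spleen, adjusted p = 0.588). The call against spleen was lost without liver replicate 1 (adjusted p = 0.126), without spleen replicate 1 (0.158) and without spleen replicate 2 (0.0921), and with DESeq2 (0.107). Foxp1 overlaps Gm20696 on the same strand, a gene given 29 to 80 UMIs a library, so some reads could have been split between them.

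Pik3ip1 (ENSMUSG00000034614, chr11:3330401-3342971, plus strand) encodes a membrane protein that binds and restrains PI3K. It was at 82.6 and 59.4 CPM in liver, 58.3 and 44.2 in spleen, with 70.9 and 78.3 in lymph node. Spleen was lowest, and the liver libraries spanned the lymph node ones. Spleen was below lymph node by 0.52 ± 0.16 (log2, 1.43-fold, edgeR adjusted p = 0.0186). That call was lost without spleen replicate 2 (adjusted p = 0.226), lymph node replicate 1 (0.0544) or lymph node replicate 2 (0.169) and with DESeq2 (0.0833). Liver over spleen was 0.39 ± 0.15 with an adjusted p of 0.0543, and it was called in 7 of 18 settings, among them without liver replicate 2 (0.0085) or spleen replicate 1 (0.0192).

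Sesn1 (ENSMUSG00000038332, chr10:41809935-41908424, plus strand) encodes a sestrin, a leucine-sensing restraint on mTORC1. Liver had 137 and 120.1 CPM, spleen 106 and 109, and lymph node 57.9 and 63.1. Both lymph node libraries lay far below the other 4, with no overlap. Sesn1 was higher in liver than in lymph node by 1.03 ± 0.13 (log2, 2.05-fold, edgeR adjusted p = 4.48e-08) and higher in spleen than in lymph node by 0.85 ± 0.13 (1.80-fold, adjusted p = 6.30e-06). Both calls held in all 18 settings tried, with the adjusted p never above 3.62e-05 and 0.00127. Liver and spleen differed by 0.18 (interval -0.06 to 0.42, adjusted p = 0.266), which was not called.

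Sesn3 (ENSMUSG00000032009, chr9:14275067-14333101, plus strand), the other sestrin, gave no such pattern. It was at 155 and 143 CPM in liver, 148 and 136 in spleen, with 136 and 157 in lymph node. All 3 organs overlapped. The log2 differences were -0.01 for liver over spleen, -0.03 for liver over lymph node and -0.02 for spleen over lymph node, each with a 95% interval within -0.27 and 0.23. With the lymph node cluster rich in immediate-early genes left out, the differences from lymph node became 0.24 (adjusted p = 0.131) and 0.25 (0.191), in favour of liver and spleen and still not called. Sesn2, the remaining member of the family, was at 3.12 to 7.19 CPM and was not called in any comparison either.

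Txnip (ENSMUSG00000038393, chr3:96557957-96561883, plus strand) encodes a protein that binds thioredoxin, lowers glucose uptake and is itself induced by glucose. Liver held 301 and 214 CPM, spleen 80.2 and 68.6, and lymph node 103 and 112. The 3 organs did not overlap, and liver stood far above the other 2 even though its libraries were the most unlike each other. Liver exceeded spleen by 1.71 ± 0.14 (log2, 3.28-fold, edgeR adjusted p = 2.14e-10) and lymph node by 1.20 ± 0.13 (2.30-fold, adjusted p = 1.68e-08). Both were called in all 18 settings, the log2 difference ranging from 1.48 to 1.92 and from 0.96 to 1.41. Spleen was below lymph node by 0.51 ± 0.14 (adjusted p = 0.0110), a call lost without spleen replicate 2 (0.113) or lymph node replicate 2 (0.121). The antisense gene Gm15441 had 1 to 19 UMIs a library beside 245 to 2127 for Txnip.

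Cdkn1b (ENSMUSG00000003031, chr6:134920401-134925513, plus strand) encodes p27, an inhibitor of cyclin-dependent kinases at the entry to S phase. Liver had 104 and 90.7 CPM, spleen 127 and 112, and lymph node 188 and 179. The organs did not overlap and rose in that order. Liver was below lymph node by 0.97 ± 0.12 (log2, 1.96-fold, edgeR adjusted p = 4.48e-08) and spleen below lymph node by 0.60 ± 0.12 (1.51-fold, adjusted p = 0.000331), both in all 18 settings. Liver was below spleen by 0.37 ± 0.12 (1.29-fold, adjusted p = 0.0212). This smaller step was lost without liver replicate 2 (0.133) or spleen replicate 1 (0.173) and with DESeq2 (0.0592).

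Tob1 (ENSMUSG00000037573, chr11:94211454-94215495, plus strand) belongs to the BTG/Tob family of antiproliferative proteins, which recruit the deadenylases that shorten mRNA tails. Its levels were 65.9 and 54.4 CPM in liver, 102 and 91.3 in spleen, with 133 and 136 in lymph node. As with Cdkn1b, the organs rose in that order without overlap. Liver was below spleen by 0.75 ± 0.13 (log2, 1.69-fold, edgeR adjusted p = 4.11e-05) and below lymph node by 1.21 ± 0.12 (2.32-fold, adjusted p = 1.27e-09), both in all 18 settings. Spleen was below lymph node by 0.46 ± 0.12 (1.37-fold, adjusted p = 0.00780). That call was lost without spleen replicate 2 (0.0866), lymph node replicate 1 (0.0553) or lymph node replicate 2 (0.0655). Tob2, the paralog of Tob1, followed another order, with 49.4 and 46.7 CPM in liver, 32.5 and 29.7 in spleen, with 76.8 and 82.4 in lymph node. It was higher in liver than in spleen by 0.55 (adjusted p = 0.00612), the opposite direction to Tob1, and lower than in lymph node in both comparisons (-0.78 and -1.33, adjusted p = 1.68e-05 and 1.63e-08).

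Pdcd4 (ENSMUSG00000024975, chr19:53892231-53929860, plus strand) encodes an inhibitor of the eIF4A helicase that is degraded after phosphorylation by S6 kinase. Liver had 711 and 664 CPM, spleen 832 and 965, and lymph node 872 and 984. Liver lay below the other 4 libraries, while spleen and lymph node overlapped. Liver was below spleen by 0.46 ± 0.12 (log2, 1.38-fold, edgeR adjusted p = 0.00510) and below lymph node by 0.49 ± 0.12 (1.40-fold, adjusted p = 0.00181). The first call was lost without spleen replicate 2 (0.159) and the second without lymph node replicate 2 (0.0561). Spleen and lymph node differed by -0.02 (interval -0.27 to 0.23).

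**Figure D2:**
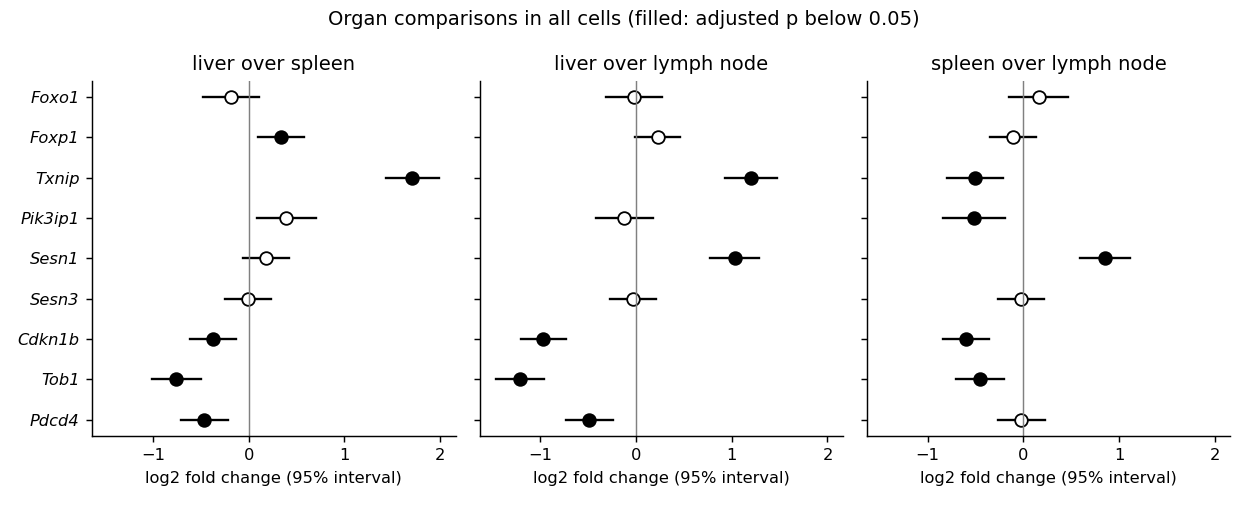
Log2 fold change of each member (x axis) in the 3 organ comparisons over all cells, with 95% intervals (lines) and filled points for an edgeR adjusted p under 0.05. Txnip lies farthest to the right in both comparisons with liver as the first organ (1.71 and 1.20) and Tob1 farthest to the left (-0.75 and -1.21), while Foxo1 and Sesn3 sit near 0 in all 3.

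Among single cells the members were sparse. After thinning each cell to 1000 UMIs and leaving out shallower cells (2360 to 2852 cells a library stayed), the mean number of the 9 members with a UMI was 0.951 to 1.10 per cell over the 6 libraries. Txnip was found in 18.2% and 14.5% of thinned liver cells, 6.23% and 5.27% of spleen cells and 8.13% and 8.94% of lymph node cells. Tob1 was found in 4.61% and 3.79%, 5.96% and 5.47%, and 9.82% and 9.79%, in the same order. The exact permutation test gave Txnip and Tob1 p = 0.0667 each, the smallest value that 15 splits of 6 libraries can give, so no share could pass 0.05. Without thinning, Txnip was found in 40.9% ± 10.0 of liver cells, 9.65% ± 1.13 of spleen cells and 12.9% ± 0.0252 of lymph node cells (SD, n = 2), shares that also carry the greater depth of liver. No class of cells here is known to lack these broadly expressed genes, so a background share from free RNA is not given.

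Cells were clustered with the 9 members left out of the clustering genes, and clusters were named from marker lists. The iNKT1-like class (8001 cells) joined cluster 0, mostly of spleen, and cluster 1, mostly of liver. Cluster 0 was only weakly marked, with a median log2 fold of 0.09 over the iNKT1 markers against 0.75 in cluster 1. In liver, 67.7% ± 6.16 (SD, n = 2) of cells were iNKT1-like, beside 66.8% ± 2.80 of spleen cells and 10.4% ± 2.48 of those from lymph node. iNKT17-like cells had shares of 1.04% ± 0.209, 1.46% ± 0.418 and 33.3% ± 1.42. A recent thymic emigrant-like (RTE-like) class held 748 cells, and 446 cells were cycling. Unnamed were cluster 2 (2250 cells, nearly all of lymph node and rich in immediate-early genes) and cluster 4 (1382 cells). Organ comparisons within a class therefore set few cells against many, namely 229 and 347 iNKT1-like cells in lymph node and 25 to 48 iNKT17-like cells in each liver and spleen library.

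In iNKT1-like cells alone Txnip was again called higher in liver than in both other organs, by more than over all cells against spleen (1.86 beside 1.71, log2) and by less against lymph node (0.96 beside 1.20). Its level was 362 and 264 CPM in liver, 91.1 and 74.1 in spleen, with 155 and 157 in lymph node. Liver stood above the other organs, and the 3 did not overlap. Liver exceeded spleen by 1.86 ± 0.14 (log2, edgeR adjusted p = 1.12e-30) and lymph node by 0.96 ± 0.18 (adjusted p = 1.91e-05), and both calls held in all 14 settings tried for this class. Within cluster 0, liver had 257 and 217 CPM, spleen 91.0 and 72.6, and lymph node 159.6 and 164, and within cluster 1 liver had 369 and 277, spleen 92.0 and 96.1, and lymph node 148 and 147. Liver was thus the highest organ in each cluster. Txnip was among the 10 leading genes of cluster 1 when ranked against all other cells. As that cluster is mostly of liver, this ranking is not separate from the organ difference.

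Other members were called in iNKT1-like cells with less stability. In all, edgeR called 4 of 9 between liver and spleen (22.1% of all genes) and 4 for liver against lymph node (10.4%). It called 4 for spleen against lymph node (3.16%). DESeq2 called 1, 3 and 1 members, and its share of all genes is not given beside them. The edgeR shares moved with single libraries. With 1 library left out, the genes called ranged from 770 to 2140, 262 to 974 and 92 to 304, beside 2030, 955 and 290 with all 6. At the clustering resolutions 0.3 and 1.0, where cluster 0 had no name, Txnip alone was called between liver and spleen, and no member for spleen against lymph node. Foxp1 (0.36, edgeR adjusted p = 0.0381) and Pik3ip1 (0.54, 0.00624) were higher in liver than in spleen, and Tob1 was lower (-0.41, 0.0377). Pik3ip1 was higher in liver without overlap within each cluster. Foxp1 was so in cluster 1, but overlapped in cluster 0 (124 and 146 CPM in liver, 119 and 127 in spleen). Tob1 was lower in liver without overlap in cluster 0, but overlapped in cluster 1 (69.2 and 57.7 CPM in liver, 64.4 and 81.35 in spleen). The Foxp1 call was lost without any 1 of the 4 libraries compared (adjusted p from 0.0831 to 0.288). Pik3ip1 was lost without liver replicate 1 (0.249) or spleen replicate 2 (0.201), and Tob1 without liver replicate 2 (0.160), spleen replicate 1 (0.332) or spleen replicate 2 (0.0795).

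Against lymph node, Sesn1 in iNKT1-like cells was at 145 and 121 CPM in liver, 109 and 128 in spleen, with 69.2 and 64.6 in lymph node. Lymph node was lowest without overlap. The log2 difference was 0.95 for liver (edgeR adjusted p = 0.00274, and 0.161 without lymph node replicate 2) and 0.84 for spleen (0.0301, and 0.145 to 0.382 without spleen replicate 2 or either lymph node library). Tob1 was at 69.0 and 56.9 CPM in liver, 87.0 and 74.1 in spleen, with 130.3 and 138 in lymph node. It was lower than in lymph node by 1.14 in liver (adjusted p = 1.46e-05) and by 0.73 in spleen (0.0335). The liver call held without each library in turn and was lost with thinned libraries (0.152) and at the resolutions 0.3 (0.0704) and 1.0 (0.162), and the spleen call was lost without any 1 of the 4 libraries compared (0.0658 to 0.411). Cdkn1b was lower in liver than in lymph node by 0.62 (0.0292), lost without liver replicate 2 (0.128), spleen replicate 1 (0.0513) or either lymph node library (0.385 and 0.0728). Txnip (-0.90, 0.00160) and Pik3ip1 (-0.85, 0.0270) were lower in spleen than in lymph node, the first lost without spleen replicate 2 (0.0855) or lymph node replicate 2 (0.190) and the second without those (0.208 and 0.316) or lymph node replicate 1 (0.191).

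In iNKT17-like cells, 6 of the 9 members passed the filter on low counts, and Foxo1, Pik3ip1 and Sesn3 did not. Pdcd4 was at 511 and 454 CPM in liver, 464 and 587 in spleen, with 744 and 857 in lymph node. Lymph node was highest without overlap. It exceeded liver by 0.73 ± 0.19 (log2, edgeR adjusted p = 0.00749) and spleen by 0.71 ± 0.20 (0.0277), the first lost without liver replicate 2 (0.0735) or lymph node replicate 2 (0.0662) and the second without spleen replicate 1 (0.499) or lymph node replicate 2 (0.219). Cdkn1b was at 89.4 and 131 CPM in liver and 238 and 204 in lymph node, lower in liver by 0.99 ± 0.32 (0.0306), a call lost without liver replicate 1 (0.330) or liver replicate 2 (0.0596). Liver against lymph node thus had 2 members called (15.9% of genes tested), and spleen against lymph node had 1 (5.13%). Between liver and spleen 0 were called by edgeR (2.75% of genes tested) and 0 by DESeq2, with 1 at an unadjusted edgeR p under 0.05. The shares of all genes for DESeq2 and for that unadjusted limit are not given.

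In RTE-like cells Txnip was called higher in liver than in spleen, but not than in lymph node (0.44, edgeR adjusted p = 0.515). Their level was 192 and 178 CPM in liver (48 and 27 cells), 52.9 and 44.6 in spleen, with 124 and 146 in lymph node. Liver was again highest and spleen lowest, without overlap. Liver exceeded spleen by 1.92 ± 0.34 (log2, edgeR adjusted p = 0.000547, and 0.107 without liver replicate 1), and spleen was below lymph node by 1.49 ± 0.35 (0.00668, and 0.0579 or 0.103 without either lymph node library). Foxp1 was at 106 and 105 CPM in spleen, with 242 and 253 in lymph node, a log2 difference of -1.28 ± 0.27 for spleen over lymph node (0.00150) that was called also without each library in turn, but not with DESeq2 (0.0913). Sesn1 was higher in liver than in spleen by 1.19 (0.0470) and than in lymph node by 1.60 (0.0290), and Pdcd4 was lower in liver than in lymph node by 0.92 (0.0149). Both Sesn1 calls were lost with the replicate block (0.111 against spleen and 0.0737 against lymph node). Sesn1 against spleen was lost also without liver replicate 1 (0.107), liver replicate 2 (0.364) or spleen replicate 2 (0.223), Sesn1 against lymph node without liver replicate 2 (0.218) or either lymph node library (0.144 and 0.11), and Pdcd4 without liver replicate 1 (0.419) or lymph node replicate 2 (0.324). The 3 comparisons thus had 2 members called each, beside 4.05%, 7.33% and 4.39% of genes tested, in the order liver against spleen, liver against lymph node and spleen against lymph node.

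**Figure D3:**
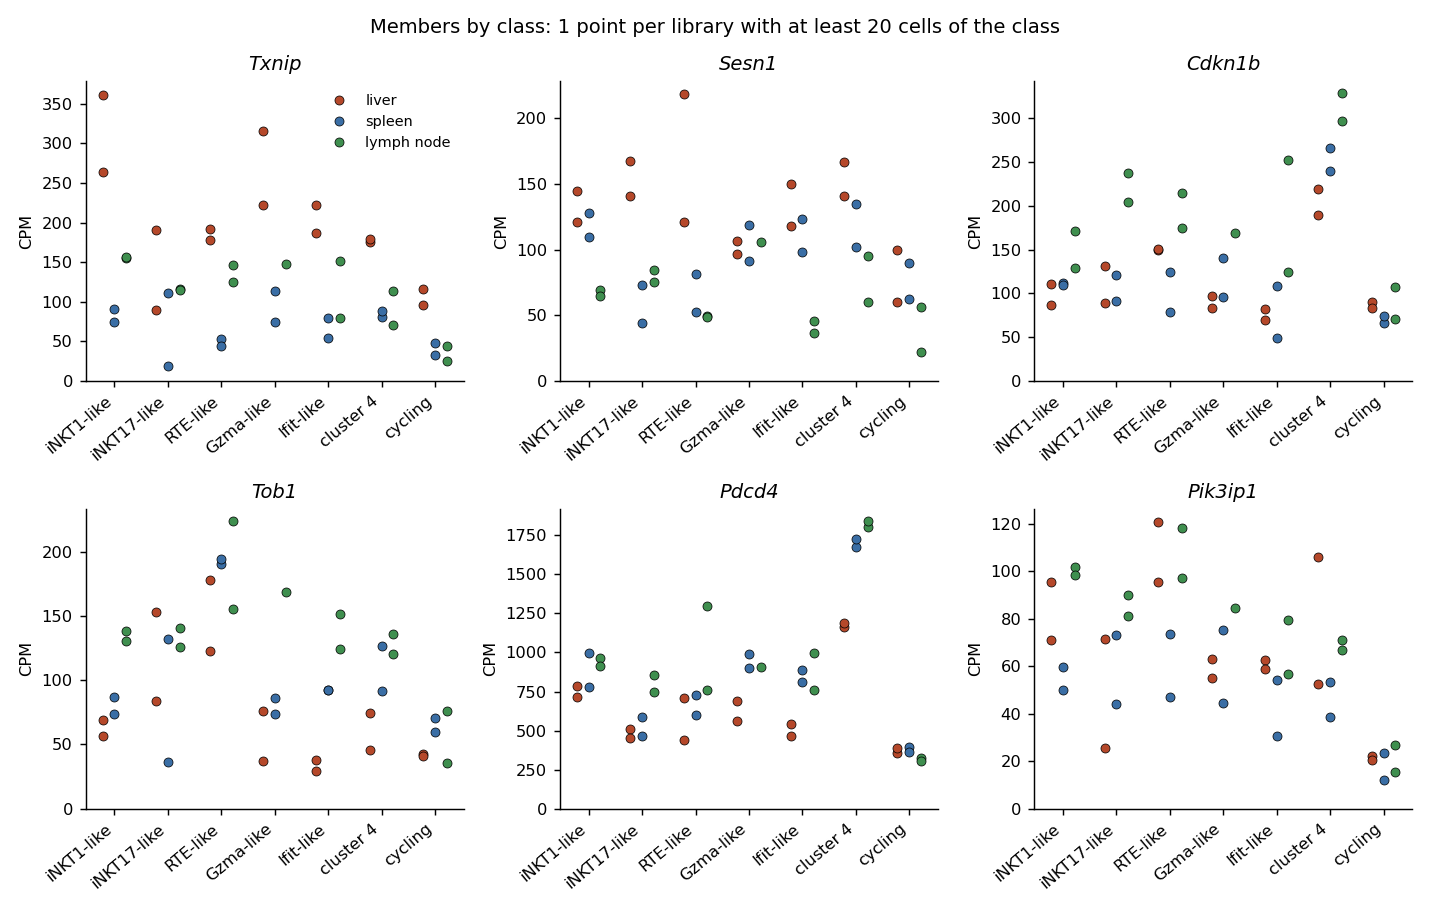
Level of 6 members in CPM (y axes, from 0) by class of cells, NF-kB-like cells not among them, with 1 point for each library that had at least 20 cells of the class and colours for the organs. Txnip is highest in liver in most classes, Cdkn1b and Pdcd4 peak in cluster 4, and Pdcd4 is lowest in cycling cells among the classes plotted.

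Whether an organ difference itself differed between classes was tested with an interaction of class and organ in edgeR. None of the 6 members that passed the count filter in iNKT17-like cells was called for iNKT17-like less iNKT1-like cells, beside 0.154%, 0.843% and 0.380% of genes tested in the order liver against spleen, liver against lymph node and spleen against lymph node. The other 3 had 1 to 10 UMIs in each liver and spleen library of that class, too few for the test to bear on them. None of the 9 was called for RTE-like less iNKT1-like cells, beside 0.440%, 1.03% and 0.782%. The lowest adjusted p was 0.134 for Pdcd4 in iNKT17-like cells and 0.141 for Foxp1 in RTE-like cells, both between spleen and lymph node. In iNKT17-like cells 6 of 18 tests on those 6 members had an unadjusted p under 0.05, and in RTE-like cells 5 of 27. The share of all genes at that unadjusted limit is not given, so these counts are not set against it. A class-specific organ difference was not shown for any member that could be tested, and DESeq2 was not run on the interactions.

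Classes were set side by side as a description, with no test, since clusters come from the same cells. In cycling cells, 7 of the 9 members (Foxp1, Txnip, Pik3ip1, Sesn1, Cdkn1b, Tob1 and Pdcd4) were lower than in iNKT1-like cells of the same library in all 6 libraries, where 22.6% of 5860 genes compared were. None was higher in all 6, where 14.2% of genes were. Pik3ip1 was at 15.0% to 39.5% of its iNKT1-like level, Txnip at 16.4% to 64.1%, Pdcd4 at 33.7% to 54.2% and Foxp1 at 31.2% to 66.7%. Cdkn1b, whose protein is removed as cells enter S phase, kept 55.1% to 95.7%. Foxo1 (87.5% to 184%) and Sesn3 (69.7% to 112%) lay on both sides of the iNKT1-like level. Cycling cells had a median of 5474 UMIs against 2068 in iNKT1-like cells, and CPM is relative to that larger total. At the clustering resolutions 0.3 and 1.0 the count was 6, with Sesn1 no longer among them.

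**Figure D4:**
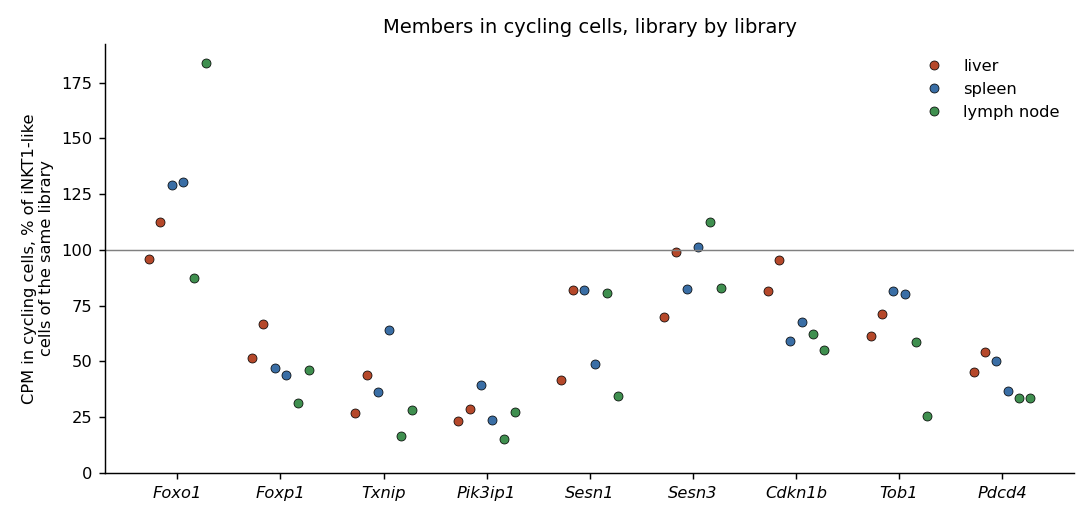
Level of each member in cycling cells as a percent of its level in iNKT1-like cells of the same library (y axis, line at 100%), with 1 point a library and colours for the organs. All 6 points of Foxp1, Txnip, Pik3ip1, Sesn1, Cdkn1b, Tob1 and Pdcd4 lie below the line, with Pik3ip1 between 15.0% and 39.5%.

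Other classes had profiles of their own. In cluster 4, Cdkn1b was at 171% to 254% and Pdcd4 at 148% to 214% of the iNKT1-like level, the 2 members higher in all 6 libraries (4.93% of genes were), while none was lower in all 6 (6.81% of genes were). In CPM, Pdcd4 there ran from 1166 and 1191 in liver to 1807 and 1844 in lymph node, and Cdkn1b from 189.6 and 219.6 to 296 and 328.5. Liver was again the lowest organ for both. In RTE-like cells Foxo1 was at 133% to 229% and Tob1 at 119% to 262% of the iNKT1-like level, above it in all 6 libraries, as 6.64% of genes were, and Txnip at 53.2% to 93.1%, below it in all 6, as 7.83% of genes were. These rest on as few as 7 UMIs of Foxo1, 9 of Tob1 and 13 of Txnip in a library. In iNKT17-like cells Pdcd4 was below in all 6 libraries (58.9% to 94.1%, on 32 or more UMIs a library). Foxo1 was above in all 6 (108% to 185%) and Sesn3 below (13.1% to 80.5%), but both failed the count filter in this class, with 3 to 7 UMIs of Foxo1 and 1 to 10 of Sesn3 in the liver and spleen libraries. Of all genes, 7.34% were above in all 6 and 7.51% below. NF-kB-like cells made up 6.71% ± 0.799 (SD, n = 2) of liver cells, 0.797% ± 0.168 of spleen cells and 0.564% ± 0.0468 of those from lymph node, and only 3 libraries had at least 20 of them. Cdkn1b in these was at 28.8 and 34.6 CPM in liver and had no UMI in the 25 cells of spleen replicate 1, and Pik3ip1 was at 35.1 and 33.0 CPM with none in the same 25 cells. Pdcd4 in NF-kB-like cells was at 411 and 368 CPM in liver, near the 358 and 387.5 of cycling liver cells. In spleen replicate 1 it was at 775.5 CPM, against 392 in cycling cells.

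The genes of most similar pattern were sought over 48 sums of a class in a library, by Pearson's r of log2(CPM + 1) among 5860 genes. These points share libraries and some rest on few UMIs, so each r is followed by its value over the 28 sums of at least 100 cells. Genes that kept a similar r were Cited2 for Tob1 (0.744, then 0.756), Paip1 for Pdcd4 (0.751, then 0.840), Clec2d for Sesn1 (0.719, then 0.772), Ubald1 for Cdkn1b (0.852, then 0.760) and Pstpip1 for Txnip (0.838, then 0.706). Pbxip1 for Foxp1 (0.729, then 0.447) and Galk2 for Pik3ip1 (0.833, then 0.555) fell. Arl6ip4 for Foxo1 (0.868, then 0.211) and Pdha1 for Sesn3 (0.754, then 0.159) fell furthest. Among the 36 pairs of members the median r was 0.0760, then 0.0123, so the 9 genes did not vary as 1 group. The closest pair over the larger sums was Cdkn1b and Pdcd4 (0.414, then 0.822), and the most opposed was Sesn1 and Tob1 (-0.279, then -0.705). All 6 sums of cluster 4, where Cdkn1b and Pdcd4 were both above the iNKT1-like level, had at least 100 cells. Paip1 was among the 10 leading genes of that cluster. The part of cluster 4 in these values of r was not tested.

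Genes around the members were counted over all cells from pathway lists, with the shares of all genes called given above (25.8%, 37.6% and 18.3%). Of 12 paralogs of the members, 8 were tested, and 3 were called between liver and spleen, all higher in liver. They were Foxo4 (log2 1.13, edgeR adjusted p = 0.0143), Foxp4 (0.88, 0.00349) and Tob2. Tob2 was the 1 paralog called in each of the other 2 comparisons. Foxo3, the other main FoxO gene of T cells, was at 48.4 to 62.3 CPM and not called in any comparison (0.03 for liver over spleen, interval -0.25 to 0.32).

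Of 19 genes listed as FoxO targets, 9 were called between liver and spleen, 8 of them higher in spleen. Between liver and lymph node 12 were called, 11 of them higher in lymph node. For spleen against lymph node there were 8, of which 6 were higher in lymph node. The list's median log2 difference was -0.28, -0.52 and -0.20, against 0.02, 0.01 and 0.00 over all genes. Il7r, the interleukin-7 receptor chain, was at 274 and 264 CPM in liver, 604 and 510 in spleen, with 1101 and 1138 in lymph node, lower in liver than in lymph node by 2.11 (edgeR adjusted p = 1.01e-15). Klf2, a factor that drives the egress receptor S1pr1, was at 167 and 139 CPM in liver, 345 and 307 in spleen, with 149 and 182 in lymph node. Spleen alone was high, above liver by 1.17 (1.14e-08) and above lymph node by 1.00 (1.05e-07). Ccr7, a chemokine receptor that brings cells into lymph nodes, was lower in liver than in spleen by 1.68 (2.19e-07), and Irs2, an adaptor of the insulin receptor, was lower in liver than in lymph node by 1.86 (4.83e-05). Klf2, Ccr7, S1pr1 and Lef1 are among the markers of the RTE-like class, with a share of 1.33% ± 0.544 (SD, n = 2) in liver, against 8.64% ± 1.67 for spleen and 3.79% ± 0.747 for lymph node, and its part in the list's differences was not tested.

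Of 26 genes of the PI3K, AKT and mTOR route, 10 were called between liver and spleen, 9 of them higher in liver. Pik3cd, the catalytic subunit p110δ, was at 137 and 111 CPM in liver against 55.2 and 45.9 in spleen, with 56.8 and 58.4 in lymph node (log2 1.22 over spleen, edgeR adjusted p = 4.27e-08). Akt1 was higher in liver than in spleen by 1.02 (3.87e-05) and lower in spleen than in lymph node by 1.44 (8.60e-08). Between liver and lymph node 13 were called, 10 higher in liver, among them the adaptor subunit Pik3r5 (1.75, 1.89e-06), the lipid phosphatase Inpp4b (1.34, 9.84e-11) and Tsc2, an inhibitor of mTORC1 (1.25, 0.00146). Between spleen and lymph node 5 were called, 2 of them higher in spleen. Activators and inhibitors of the route are both on this list, and both were among those higher in liver.

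Of 9 CDK inhibitors and pocket proteins tested beside Cdkn1b, 1, 3 and 3 were called in the 3 comparisons. Cdkn1a, which encodes p21, had 34 and 21 UMIs in liver, 10 and 1 in spleen, with 219 and 179 in lymph node, and was lower in liver than in lymph node by 3.75 (log2, edgeR adjusted p = 2.15e-12). The pocket protein gene Rbl2 (p130) was higher in liver and in spleen than in lymph node (0.58 and 0.54, 0.000972 and 0.00524), the opposite direction to Cdkn1b. Of 11 G1 cyclins and kinases tested, 1, 5 and 3 were called. The cyclin D3 gene Ccnd3 was at 507 and 479 CPM in liver, 280.3 and 231 in spleen, with 180.1 and 187 in lymph node, higher in liver than in spleen by 0.87 (1.36e-06) and than in lymph node by 1.37 (2.40e-11). Its order over the organs was thus the reverse of that of Cdkn1b and Tob1.

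Among 12 other genes tied to T cell quiescence, 3, 9 and 7 were called. Klf4, a factor that restrains proliferation and also an early response gene, was at 1.98 to 3.38 CPM in liver and spleen and 73.6 and 74.7 in lymph node. Klf3 was at 187 and 171 CPM in liver, 280.3 and 253 in spleen, with 66.0 and 57.2 in lymph node, higher in liver than in lymph node by 1.48 (log2, edgeR adjusted p = 1.58e-11). Btg1, of the same family as Tob1, was lower in liver than in spleen by 0.73 (5.37e-05), the direction of Tob1. For the thioredoxin and glucose genes around Txnip, 2, 5 and 3 of 8 were called. Hk2, a hexokinase, had 3.96 and 4.78 CPM in liver, 7.81 and 8.96 in spleen, with 82.5 and 77.2 in lymph node, and the thioredoxin reductase gene Txnrd1 was higher in liver than in lymph node by 0.71 (9.29e-05). Of 9 eIF4 genes around Pdcd4, 3, 5 and 1 were called. Eif4b, another S6 kinase substrate and cofactor of eIF4A, was higher in liver than in spleen by 0.99 (5.27e-07) and than in lymph node by 1.09 (1.42e-08), and Eif4a1, the helicase that Pdcd4 binds, was lower in liver than in spleen by 0.38 (0.0316). Immediate-early genes differed in the same direction as Klf4, Hk2 and Cdkn1a in lymph node, with the values given above, and their part in these differences was not tested.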

How the data were processed

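Per the labels and the study's methods, 10x Genomics 3′ v2 libraries were sequenced and processed by the authors with Cell Ranger 3.1.0 against mm10. The deposited matrices hold raw, unnormalized UMI counts of genes in cell barcodes, and the deposited gene and barcode lists hold other values, namely identifiers. The study's gene and mitochondrial limits were applied (300 to 4000 genes, at most 15% mitochondrial UMIs), which kept 16532 of 16587 barcodes. The study also removed cells with both Xist and a Y-linked gene. No library here held Xist together with any of the Y-linked genes checked, so that limit would remove none, and the study states fewer cells. Another 187 genes (ribosomal, haemoglobin) with 24.0% to 35.0% of the UMIs were left out. Locations come from GENCODE vM21 (GRCm38).

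UMIs were summed per library, overall and per class, and tested with edgeR 4.0.16 (R 4.3.3; filterByExpr, TMM, quasi-likelihood, all 6 libraries in 1 fit, Benjamini-Hochberg over all genes tested). SE is the log2 fold change over the root of F. Clustering used 3000 variable genes, 20 components, 20 neighbours and leidenalg 0.10.2 at resolution 0.5. A cluster needed a median marker log2 fold of at least 1 with 3 markers up, or, for iNKT1-like, a median above 0, limits set after the clusters were seen. No doublets were removed in the main setting. The code was tested on simulated data. Named genes were all members and paralogs, up to 3 called genes a pathway list and comparison with the largest change, and the 3 most similar genes a member, of which the text gives a selection. The members, lists and rules were chosen with earlier results of these data known. Alternatives were DESeq2 1.42.0, other size factors, no count filter, a replicate block, thinned libraries, other cell and gene filters, other resolutions and each library left out. Some items are not reported here.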

Additional observations from a re-analysis of the deposited data

How the results depend on the processing

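The all-cells calls of Txnip and Tob1 between liver and each other organ, and of Sesn1 and Cdkn1b between lymph node and each other organ held in all 18 settings. Beside them, a call over all cells was lost in 18 combinations of a member's comparison and a setting. A call was gained in 7 such combinations, all of Pik3ip1 for liver over spleen. DESeq2 called 3 members over all cells (liver against spleen), 1 in iNKT1-like cells (liver against spleen, and spleen against lymph node), 1 and 0 in iNKT17-like cells (lymph node against liver, and against spleen), and 1, 0 and 0 in RTE-like cells. With each library thinned to the smallest total, 1, 1 and 0 members were called in iNKT1-like cells, 1 and 0 in iNKT17-like cells (lymph node against liver, and against spleen) and 0 in each RTE-like comparison, and Tob1 in iNKT1-like cells turned to 0.09 (liver over spleen). With no filter on low counts, 2 were called in iNKT1-like and 2 in iNKT17-like cells (spleen against lymph node), and 1 in RTE-like cells for liver against spleen and for liver against lymph node. At Leiden resolution 0.3, 1 and 0 were called in iNKT1-like cells (spleen against liver, and against lymph node), and RTE-like cells could not be fitted. The RTE-like class at that resolution held 72 and 66 lymph node cells, beside 2 and 0 of liver and 5 and 2 of spleen. At resolution 1.0 the counts were 1, 1 and 0 in iNKT1-like cells, and 1 in RTE-like cells for lymph node against each other organ. Without the lymph node cluster rich in immediate-early genes, an alternative chosen after the clusters were seen, Sesn3 turned to 0.24 (liver over lymph node) and 0.25 (spleen over lymph node), neither called. The cause of these changes was not tested, other than that thinning leaves fewer UMIs. The shares of all genes called in these settings are not given, so the member counts are not set against them.

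Leaving out each library in turn gave 3 to 5, 4 to 5 and 2 to 5 members over all cells, in the order liver against spleen, liver against lymph node and spleen against lymph node. The ranges were 1 to 4, 2 to 4 and 0 to 4 in iNKT1-like cells, 0, 0 to 2 and 0 to 2 in iNKT17-like cells, and 0 to 2, 0 to 2 and 1 to 3 in RTE-like cells. Over all cells, Pik3ip1 (liver over lymph node) ranged from -0.36 to 0.072 and turned without liver replicate 2, and Pdcd4 (spleen over lymph node) ranged from -0.15 to 0.10 and turned without spleen replicate 1, none called. The number of all genes called over all cells ranged from 1367 to 2414, 2414 to 4031 and 1025 to 1928 (with all libraries 2620, 3828 and 1864), in iNKT17-like cells from 39 to 60, 169 to 362 and 40 to 128 (52, 301 and 97), and in RTE-like cells from 18 to 168, 79 to 252 and 87 to 135 (128, 232 and 139).

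Replicate numbers are shared by the organs, but deviations of same-numbered libraries correlated at 0.0984, 0.0848 and 0.0755 over 10160 genes, all under 0.1, so the numbers were not taken as pairs. With the replicate block, 6, 5 and 5 members were called over all cells and 5, 5 and 4 in iNKT1-like cells. The counts were 0, 2 and 2 in iNKT17-like cells and 1, 1 and 3 in RTE-like cells. In RTE-like cells both Sesn1 calls of liver were lost (edgeR adjusted p = 0.111 and 0.0737). The share of all genes called with the block is not given, so these counts are not set against it.

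With 25 to 48 iNKT17-like cells in the liver and spleen libraries, a difference in that class was not detectable for the 3 members that did not pass the filter. Levels over a whole library rest on 158 or more UMIs of each member, and those of iNKT17-like cells on as few as 1.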
